A study of Mus musculus with 24 samples.

Results

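The subunits of the proteasome were followed in mouse lungs that breathed O3. The list held 37 genes: the 7 subunits of the outer alpha ring and the 7 of the inner beta ring of the 20S core, 20 genes of the 19S cap (the 6 ATPases and 3 other subunits of its base, 8 subunits of its lid, 3 chaperones of its assembly) and 3 activators of the 11S type. A gene was read by the probe set (the spots of the array for one transcript) annotated to it alone, and by the one with the highest mean log2 signal where there were several. Of the 37 genes, 36 had such a probe set, out of 11597 genes tested, and all 36 passed the filter on low signals. Psme2 shared its only probe set with Psme2b and was left out.

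There were 8 groups of 3 male mice aged 6 to 8 weeks, with 1 mouse to an Affymetrix MOE430A array and total RNA from the left lung. Tnfr-/- mice carried the targeted alleles Tnfrsf1a tm1Imx and Tnfrsf1b tm1Imx on a B6.129S background, and so lacked both receptors of the cytokine TNF in every cell. Tnfr+/+ mice were C57BL/6J. Mice of both genotypes were kept without a break in a chamber with O3 at 0.3 ppm, for 24, 48 or 72 h, or in one with filtered air. The same 3 air arrays of a genotype served all 3 of its O3 times, and the strain backgrounds were not those of littermates.

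The proteasome is the main protease of the cytosol and nucleus. The 19S cap binds proteins tagged with ubiquitin chains, its lid cuts the chains off, the ATPases of its base unfold the protein and thread it through the gate of the alpha ring, and the beta ring cuts it into peptides. In oxidised cells the core alone also degrades damaged proteins, and the genes of the complex are known to be transcribed together, through NRF1 (Nfe2l1) when proteasome activity falls and in part through NRF2 (Nfe2l2) under oxidative stress. In inflamed tissue the 3 catalytic subunits can be exchanged for immunoproteasome subunits, which are not members here.

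In Tnfr-/- lungs 36, 35 and 30 of the 36 subunits had a higher mean after 24, 48 and 72 h of O3 than in air, by small amounts: the median log2 fold change was 0.24, 0.30 and 0.21. In Tnfr+/+ lungs 30, 28 and 22 had a higher mean, with medians of 0.08, 0.11 and 0.09. Few single genes passed the test, and those that did were mostly subunits of the 19S lid, above all Psmd8, Psmd12, Psmd14, Psmd6 and Psmd7. None fell. The 2 genotypes were not shown to differ in this response: no subunit passed the test of the interaction of genotype and O3 at any time.

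The members were well expressed in the lung. Their mean log2 levels over all arrays lay between 7.63 (Psmd10) and 11.86, and the median member was brighter than 88.7% of the genes, a ranking of probe sets and not of transcripts. The 10 measured lung epithelium genes, which mark the labelled tissue and are led here by the surfactant gene Sftpc (28400 to 32100 on every array) and Scgb1a1 of club cells (25300 to 30100), had a summed signal between 158690 and 177533. Of the disrupted genes, Tnfrsf1b read 151 to 266 with a median of 216 in 12 Tnfr-/- lungs and 356 to 525 with a median of 408 in 12 Tnfr+/+ lungs on one probe set (log2 fold change -0.97, limma adjusted p = 8.5e-07), while its other probe set gave -0.14 (adjusted p = 0.62). Tnfrsf1a, on its only probe set, read 1400 to 2340 in Tnfr-/- lungs against 2030 to 3620 in Tnfr+/+ lungs (-0.41, adjusted p = 0.037). The place of these probes in the targeted exons is not given in the sources used here. Total signal per array was 14877040 to 16057693, and arrays correlated with each other at r = 0.92 to 0.965. One array, Tnfr+/+ O3 72 h replicate 1, differed from the rest. Its mean r to the others was 0.927, where the other arrays had 0.943 to 0.954, and it had a ratio of the 3' to the 5' Gapdh probe set, a measure of RNA integrity that rises as RNA degrades, of 4.45. The same ratio for actin on that array was 1.18. As the lungs were measured whole, fewer cells of a type and less RNA per cell cannot be told apart. The number of arrays, 3 to a group, limits the precision of each difference.

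Upstream sequence was matched for 30 of the 36 genes in RefSeq (build GRCm38.p6, the 250 bases before and 50 after each start site, 5' to 3' on the gene's strand). The genes Psmb7, Psmb1, Psmb2, Psmc3, Psmd3 and Psmd7 are named only. The core of the antioxidant response element, the motif bound by NRF1 and NRF2 with small Maf partners, was searched as TGACNNNGC on both strands. It stood in the window of 5 of the 30 genes (16.7%), against 16.3% of 9871 genes of the array with a window and 45.5% of 11 NRF2 target enzymes. The CCAAT box, searched as CCAAT on both strands, was in 12 of the 30 genes and in 42.3% of the 9871. Neither share of the subunits stood far from that of all genes. The 5 stretches that hold the core are printed because they place the motif at very different distances from the start. Those of Psmd8 and Psmd14 are printed for calls averaged over the genotypes, of Psmd8 at 48 and 72 h and of Psmd14 at 72 h. These calls passed in every alternative run for them, though neither gene had another probe set past the filter to try. Psmd8 held neither motif in its window, and Psmd14 is among the 12 genes with a CCAAT box, at 159 bases before and 5 and 8 after the start, outside the stretch printed. Capitals mark the core.
Psmb5 (chr14:54618008-54618067, minus strand): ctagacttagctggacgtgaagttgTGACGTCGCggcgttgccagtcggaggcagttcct
Psmb6 (chr11:70525297-70525356, plus strand): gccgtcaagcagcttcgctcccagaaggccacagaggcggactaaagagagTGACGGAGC
Psmd9 (chr5:123228130-123228189, plus strand): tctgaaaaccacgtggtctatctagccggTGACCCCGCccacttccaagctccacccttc
Psmc6 (chr14:45329574-45329633, plus strand): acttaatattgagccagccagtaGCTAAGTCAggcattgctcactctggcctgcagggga
Psmd12 (chr11:107479278-107479337, plus strand): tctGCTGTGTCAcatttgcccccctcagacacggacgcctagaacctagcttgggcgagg
Psmd8 (chr7:29180674-29180733, minus strand): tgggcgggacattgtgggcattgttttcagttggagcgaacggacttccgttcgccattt
Psmd14 (chr2:61711634-61711693, plus strand): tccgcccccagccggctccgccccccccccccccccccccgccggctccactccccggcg
The core began 47, 9 and 31 bases before the start in Psmb5, Psmb6 and Psmd9 on the gene's own strand, and 227 and 247 bases before it in Psmc6 and Psmd12 on the opposite strand. A match of letters is not a bound site.

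The mean log2 level of the 36 genes was taken on each array and given relative to the mean of the Tnfr+/+ air arrays. In Tnfr-/- lungs it was -0.07, 0.03 and 0.02 in air, 0.29, 0.19 and 0.24 after 24 h, 0.28, 0.34 and 0.24 after 48 h, and 0.14, 0.21 and 0.24 after 72 h of O3. The Tnfr+/+ arrays had -0.05, 0.07 and -0.01 in air, 0.08, 0.11 and 0.03 after 24 h, 0.10, 0.15 and 0.07 after 48 h, and -0.09, 0.22 and 0.19 after 72 h. All 9 Tnfr-/- O3 arrays lay above all 6 air arrays of both genotypes, while the Tnfr+/+ O3 arrays overlapped with air at 24 h and, through replicate 1, at 72 h. The mean over all genes stayed between -0.06 and 0.02 on every array.

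**Figure D1:**
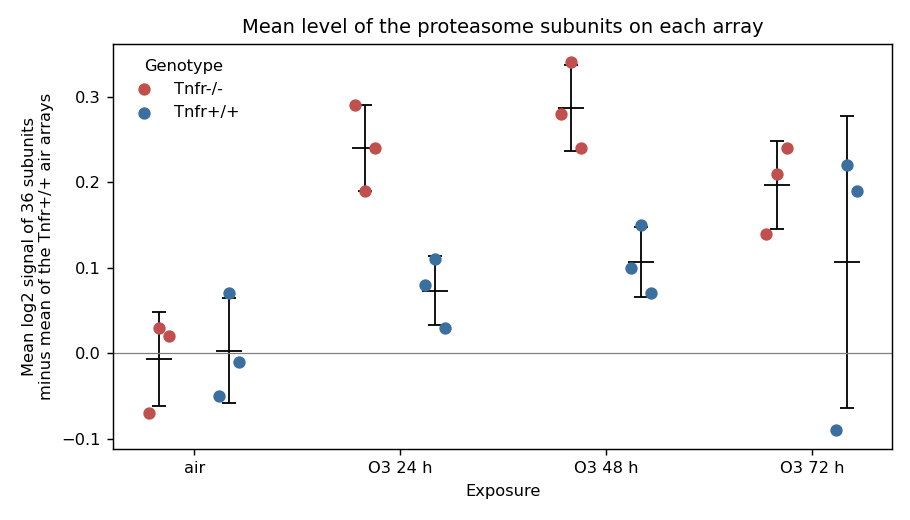
Mean log2 signal of the 36 proteasome subunits on each of the 24 arrays (points), minus the mean of the Tnfr+/+ air arrays, by exposure and genotype, with the mean and SD of 3 arrays (bars). The Tnfr-/- O3 arrays lie between 0.14 and 0.34, and Tnfr+/+ O3 72 h replicate 1 lies at -0.09.

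The ratio of 3' to 5' Gapdh signal was lower than in air on the Tnfr-/- O3 arrays, where these levels were higher. The same held for Tnfr+/+ O3 72 h replicates 2 and 3. In Tnfr+/+ lungs at 24 and 48 h the ratio stayed near or above that in air. It was 1.03 to 1.22, 1.01 to 1.13 and 0.89 to 1.08 in Tnfr-/- lungs after 24, 48 and 72 h of O3, against 1.28 to 1.43 in Tnfr-/- air. The Tnfr+/+ ratio was 1.53 to 1.74 after 24 h, 1.30 to 1.33 after 48 h, and 4.45, 1.06 and 1.02 after 72 h, against 1.31 to 1.56 in air. For actin the ratio was 1.01 to 1.16, 1.03 to 1.10 and 1.02 to 1.09 in Tnfr-/- lungs after 24, 48 and 72 h, against 1.2 to 1.27 in air, and in Tnfr+/+ lungs it was 1.31 to 1.95, 1.13 to 1.29 and 1.10 to 1.18, against 1.26 to 1.55 in air. The 11 O3 arrays with a Gapdh ratio of 0.89 to 1.22 had subunit means of 0.14 to 0.34, and the other 13 arrays had means of -0.09 to 0.15. With the log2 ratio as a covariate, an alternative added after the data were seen, the member medians in Tnfr-/- lungs were 0.20, 0.23 and 0.12 at 24, 48 and 72 h, and in Tnfr+/+ lungs 0.10 at 48 h and 0.17 at 72 h. The part that RNA quality had in the levels was not tested beyond that.

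**Figure D2:**
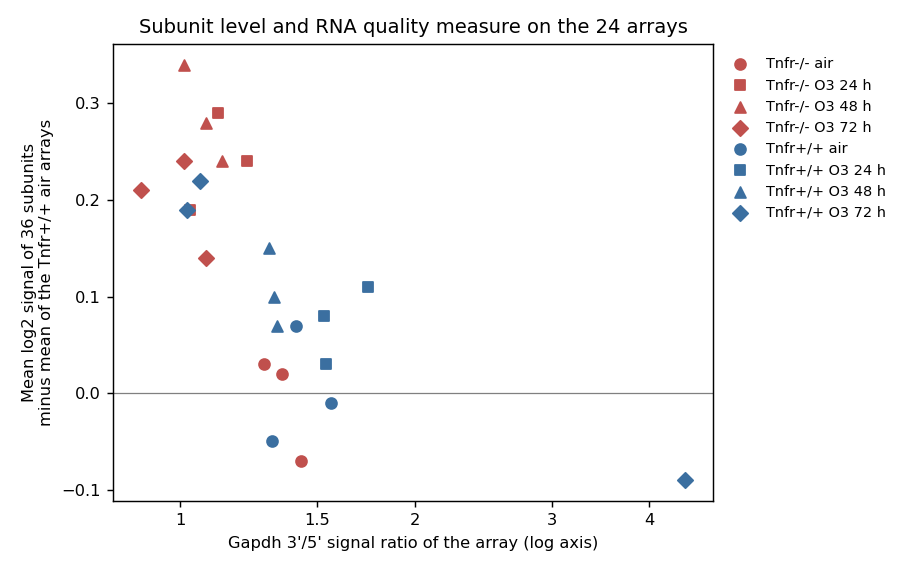
Mean log2 signal of the 36 subunits on each array, minus the mean of the Tnfr+/+ air arrays, against the 3' to 5' Gapdh signal ratio of the same array (log axis), with colour for genotype and shape for exposure. Arrays with ratios of 0.89 to 1.22 have subunit means of 0.14 to 0.34, and the array at 4.45 has -0.09.

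The response to O3 was first compared with air within Tnfr-/- lungs. Positive log2 fold changes were found for 36, 35 and 30 of the 36 subunits after 24, 48 and 72 h, where 47.3%, 42.4% and 42.8% of all genes were positive and the median gene lay at -0.02, -0.06 and -0.06. The 3 O3 arrays lay wholly above the 3 air arrays for 20 subunits at 24 h (55.6%), 24 at 48 h (66.7%) and 17 at 72 h (47.2%), against 10.9%, 13.7% and 11.8% of all genes. None lay wholly below, against 11.8%, 18.3% and 15.7%. By the limma test with Benjamini-Hochberg adjustment over all probe sets, 0, 2 and 1 of them passed at 24, 48 and 72 h, against 0.845%, 2.6% and 2.55% of all genes called higher, and none was called lower, against 0.466%, 1.49% and 1.7%. The unadjusted p was under 0.05 for 10, 11 and 10 subunits that were higher, against 6.56%, 8.4% and 7.73% of all genes, and for none that was lower, against 6.63%, 10.6% and 9.95%. The shift ran through many subunits while most of them missed the threshold, and the median standard error of a subunit was 0.16. At 24 h the lowest p belonged to Psmd14 (0.44), Psmd12 (0.37) and Psmb5 (0.42), with adjusted p of 0.12, 0.14 and 0.16 by limma.

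In Tnfr+/+ lungs 30, 28 and 22 subunits were positive at 24, 48 and 72 h, against 50.6%, 47.5% and 47.1% of all genes. The O3 arrays lay wholly above air for 3 (8.33%), 5 (13.9%) and 10 (27.8%), against 6.51%, 8.37% and 9.17% of all genes, so that the share at 24 h was close to that of all genes. No subunit lay wholly below air, against 6.14%, 8.86% and 11.1% of all genes. None passed at 24 and 48 h by limma and 1, Psmd8, passed at 72 h, against 0.0862%, 1.04% and 1.93% of all genes called higher, with none called lower, against 0.00862%, 0.336% and 1.5%. The unadjusted p was under 0.05 for 2, 3 and 6 higher subunits, against 3.4%, 6.21% and 8.09% of all genes, and for no lower one, against 2.54%, 6.14% and 9.84%. By p, Psma6 (0.31, adjusted p = 0.73), Psma3 (0.26, adjusted p = 0.78) and Psmd7 (-0.30, adjusted p = 0.96) led at 24 h, and Psmd8 (0.61, adjusted p = 0.067), Psma3 (0.28, adjusted p = 0.31) and Psmb5 (0.29, adjusted p = 0.39) at 48 h. Without Tnfr+/+ O3 72 h replicate 1 the median at 72 h was 0.22 and Psmd8 no longer passed.

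**Figure D3:**
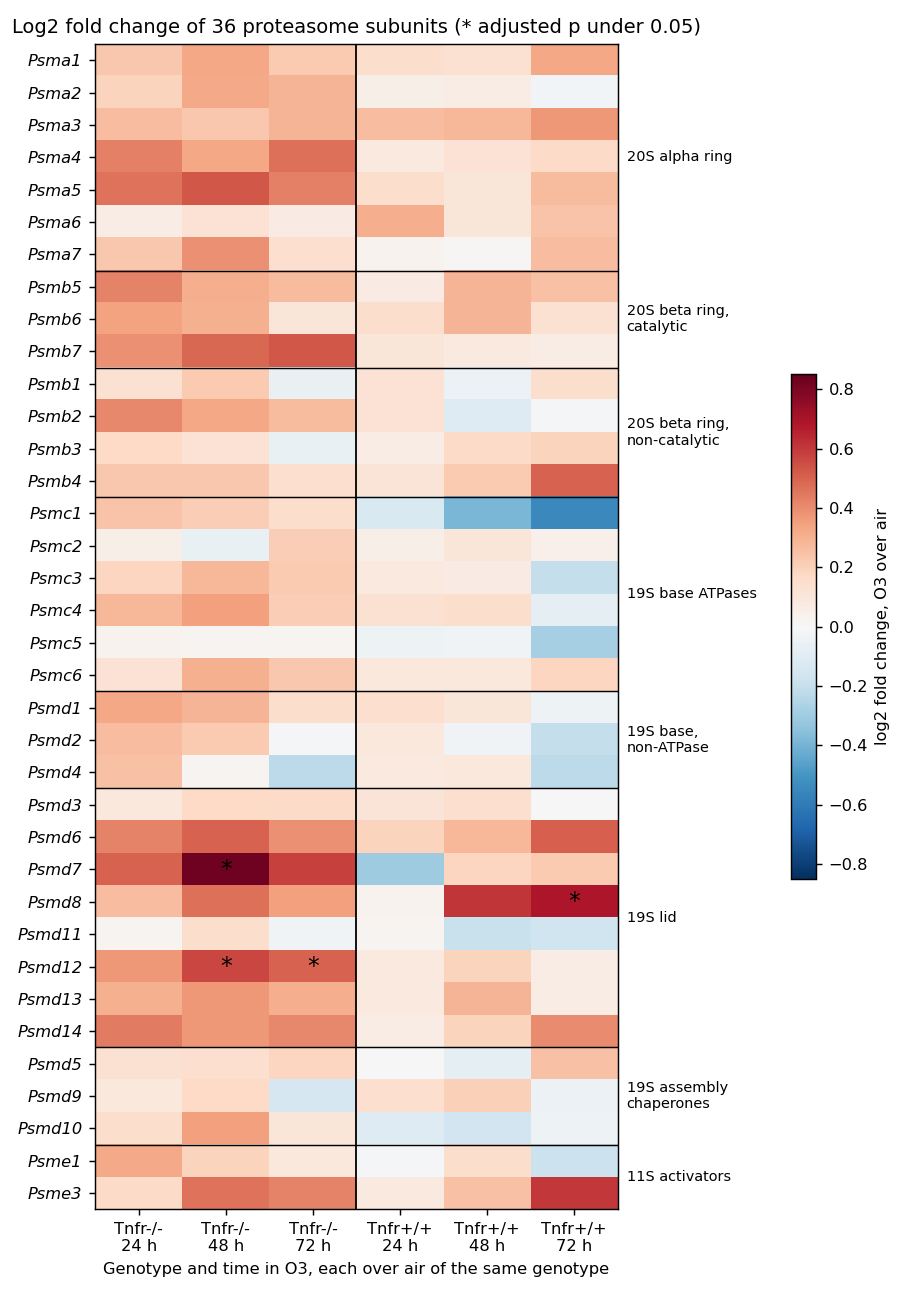
Log2 fold change of each of the 36 subunits (rows, by subcomplex) after 24, 48 and 72 h of O3 over air of the same genotype (columns), with colour from blue (lower) over white (0) to red (higher) and stars at an adjusted p under 0.05. In Tnfr-/- lungs 36, 35 and 30 rows are above 0 at the 3 times, the 19S lid holds all 4 stars, and Psmc1 is blue in Tnfr+/+ at 48 and 72 h (-0.39 and -0.55).

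Averaged over both genotypes, where each difference rests on 12 arrays, none of the subunits passed at 24 h, 4 at 48 h (11.1%) and 7 at 72 h (19.4%), all higher, against 1.07%, 4.33% and 5.25% of all genes called higher. None was called lower, against 0.405%, 3.55% and 5.96%. The unadjusted p was under 0.05 for 9, 12 and 12 higher subunits, against 6.41%, 10% and 10.6%, and for no lower one, against 6.09%, 12.6% and 14.9%. The 4 at 48 h were all lid subunits: Psmd8, Psmd7, Psmd6 and Psmd12. The 7 at 72 h were the lid subunits Psmd8, Psmd6, Psmd14 and Psmd12, the alpha ring subunits Psma5 and Psma3, and the activator Psme3. At 24 h the lowest p belonged to Psma3 (0.26 ± 0.08, SE, adjusted p = 0.14), Psma5 (0.30 ± 0.10, adjusted p = 0.21) and Psmd6 (0.31 ± 0.11, adjusted p = 0.22). With the Gapdh ratio as a covariate, 6 passed at 48 h and 9 at 72 h, and each of the single calls at both times was kept. The slope of that covariate rests largely on Tnfr+/+ O3 72 h replicate 1, which makes this a weak check.

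**Figure D4:**
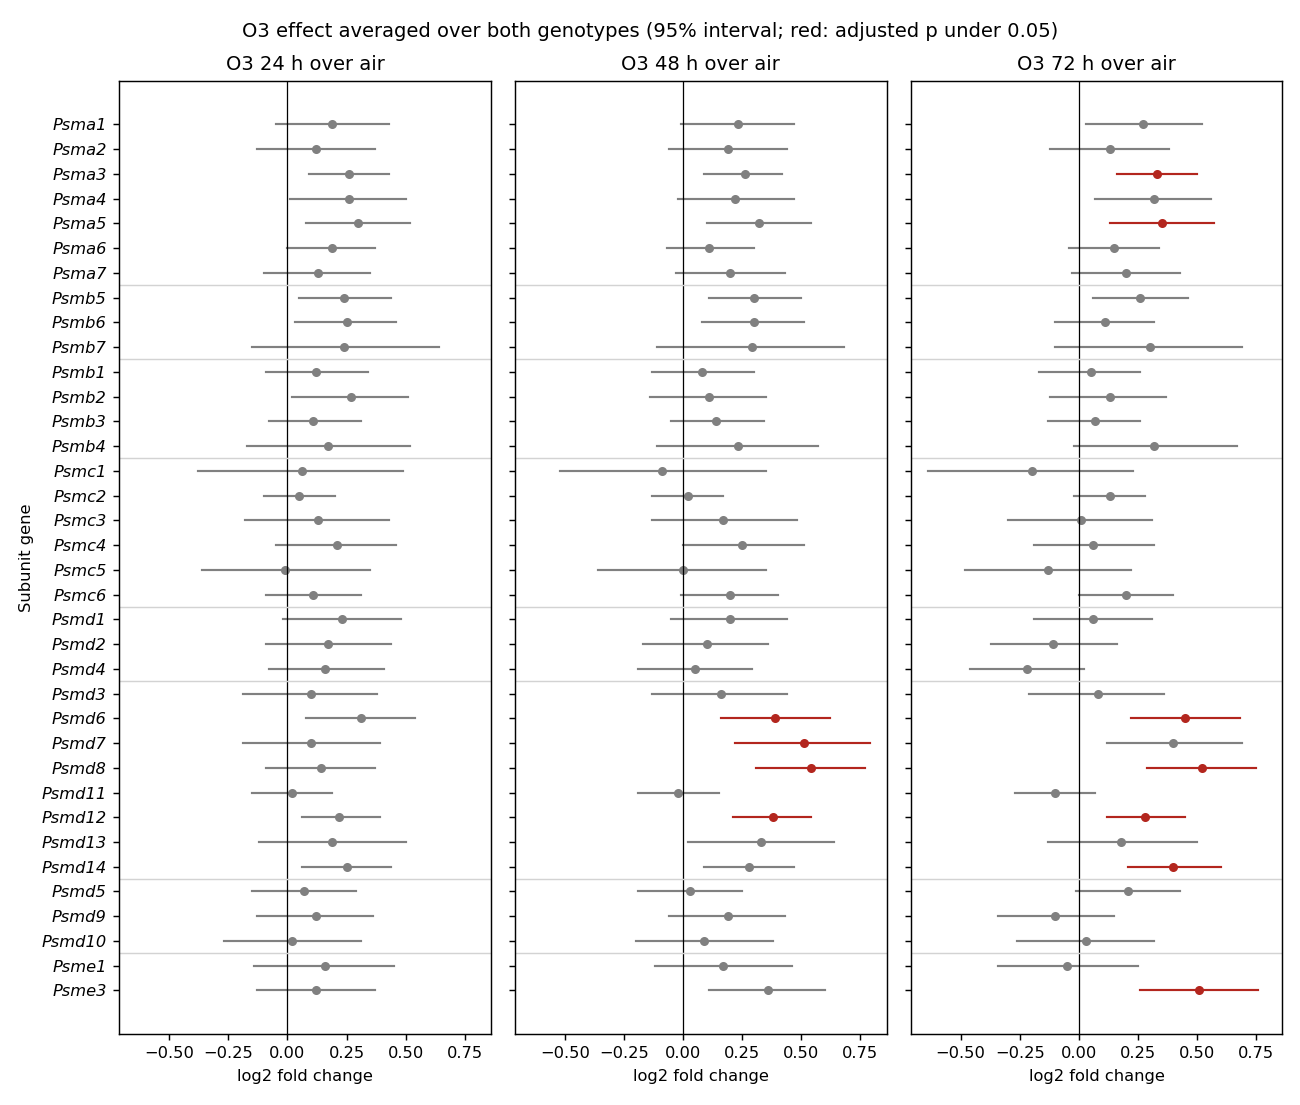
Log2 fold change of each subunit (rows) in O3 over air averaged over both genotypes, at 24, 48 and 72 h (panels), with the 95% interval of the limma fit and red for an adjusted p under 0.05. Red points number 0, 4 and 7, and Psmd8 has the highest value at 48 h (0.54) and at 72 h (0.52).

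The lid frees ubiquitin from the bound protein. In Tnfr-/- lungs its 8 genes had medians of 0.33, 0.42 and 0.37 at the 3 times. These were higher than those of any other subcomplex of more than 3 genes. The 3 catalytic subunits of the beta ring had a higher median than the lid at 24 h (0.39). In Tnfr+/+ lungs the lid medians were 0.07, 0.19 and 0.14 and did not lead. The alpha ring had 0.15, 0.10 and 0.26 there, and the catalytic subunits 0.10, 0.29 and 0.13. Psmd8, a lid subunit needed for the last step of lid assembly in yeast, read 1394, 1522 and 1248 in Tnfr-/- air, 1788, 1699 and 1492 after 24 h, 2037, 2085 and 1653 after 48 h, and 1539, 1961 and 1816 after 72 h of O3. The Tnfr+/+ signals were 1214, 1247 and 1133 in air, 1275, 1099 and 1289 after 24 h, 1700, 1829 and 1977 after 48 h, and 2375, 1475 and 2053 after 72 h. The 48 and 72 h arrays lay above the air arrays in both genotypes. Psmd8 rose by 0.54 ± 0.11 at 48 h and 0.52 ± 0.11 at 72 h on average (SE, limma adjusted p = 0.005 at both times), and passed in every alternative tried for these comparisons. Psmd8, Psmd12 and Psmd14 had no other probe set past the filter, so the change of probe set could not alter their calls. The Psmd8 call in Tnfr+/+ lungs alone at 72 h (0.69 ± 0.16, adjusted p = 0.021) was lost in 5 of the 6 fits that left out an array (highest adjusted p 0.084), all but the one without O3 replicate 2. Without the differing O3 replicate 1 it was 0.54 (adjusted p = 0.081).

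Psmd12, a scaffold subunit of the lid, read 695.3, 796.8 and 811.9 in Tnfr-/- air, 1033, 945.2 and 987.8 after 24 h, 1115, 1189 and 1100 after 48 h, and 1078, 1036 and 1149 after 72 h of O3. The Tnfr+/+ lungs gave 894.8, 888.1 and 913.8 in air, 1017, 872.9 and 958.1 after 24 h, 1007, 1038 and 1035 after 48 h, and 790.8, 1088 and 963.9 after 72 h. All 9 Tnfr-/- O3 arrays lay above the Tnfr-/- air arrays, and these air arrays lay below those of Tnfr+/+. In Tnfr-/- lungs Psmd12 rose by 0.57 ± 0.11 at 48 h (adjusted p = 0.0063) and 0.50 ± 0.11 at 72 h (adjusted p = 0.014). At 48 h no left-out array ended the call, while at 72 h either air replicate 1 or O3 replicate 3, left out, ended it (highest adjusted p 0.08). Averaged over the genotypes it rose by 0.38 ± 0.08 at 48 h (adjusted p = 0.0059), in every alternative, and by 0.28 ± 0.08 at 72 h (adjusted p = 0.027), where 6 of 12 fits without an array lost the call (Tnfr-/- air replicate 1 and O3 replicate 3, Tnfr+/+ air replicates 1 and 2 and O3 replicates 2 and 3). Among the subunits its interaction with genotype had the lowest p at 72 h (0.44 ± 0.16) and did not pass (limma adjusted p = 0.87).

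Psmd7, the inactive partner of the lid's deubiquitinase, had the highest fold change of all in Tnfr-/- lungs. It read 287.4, 367.1 and 350.6 in Tnfr-/- air, 475, 503.1 and 438.5 after 24 h, 500.7, 707.2 and 588.2 after 48 h, and 417.6, 582.3 and 511.5 after 72 h. Signals in Tnfr+/+ lungs were 383.2, 464.8 and 344.9 in air, 373.6, 258.1 and 338.8 after 24 h, 483.6, 426.4 and 432.2 after 48 h, and 342.2, 556.4 and 513.8 after 72 h. The Tnfr-/- O3 arrays lay above air at all 3 times and the Tnfr+/+ O3 arrays overlapped with air at all 3. Psmd7 rose by 0.83 ± 0.19 in Tnfr-/- lungs at 48 h (adjusted p = 0.02) and by 0.51 ± 0.14 on average (adjusted p = 0.03). The first call was kept in 2 of 6 fits without an array (air replicate 2, O3 replicate 1) and the second in 5 of 12 (those and Tnfr+/+ air replicate 2 and O3 replicates 2 and 3). Its interaction at 24 h was 0.80 ± 0.27 (limma adjusted p = 0.61). A pair of far dimmer probe sets of the gene gave -0.86 (mean log2 level 4.16) and 0.51 (5.81) in Tnfr-/- lungs at 48 h, neither passing (adjusted p = 0.34 and 0.28).

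Psmd14, the metalloprotease that cuts ubiquitin chains off the substrate, read 1235, 1662 and 1436 in Tnfr-/- air, 2036, 2118 and 1707 after 24 h, 1961, 1927 and 1693 after 48 h, and 1762, 2121 and 1858 after 72 h. The Tnfr+/+ arrays read 1418, 1516 and 1410 in air, 1449, 1501 and 1566 after 24 h, 1695, 1848 and 1432 after 48 h, and 1813, 1889 and 2022 after 72 h. At 72 h both genotypes lay above their air arrays. It rose by 0.40 ± 0.09 at 72 h on average (adjusted p = 0.0076), in every alternative, and gave 0.28 ± 0.09 at 48 h (adjusted p = 0.07). Psmd6, another lid subunit, read 1068, 1283 and 1394 in Tnfr-/- air, 1809, 1540 and 1657 after 24 h, 1684, 1829 and 1758 after 48 h, and 1596, 1619 and 1668 after 72 h. Its Tnfr+/+ signals were 1243, 1283 and 1304 in air, 1649, 1453 and 1299 after 24 h, 1293, 1634 and 1752 after 48 h, and 2371, 1656 and 1534 after 72 h. The Tnfr-/- O3 arrays lay above air at each time and the Tnfr+/+ ones at 72 h only. Psmd6 rose by 0.39 ± 0.11 at 48 h (adjusted p = 0.036) and 0.45 ± 0.11 at 72 h (adjusted p = 0.012). Its 48 h call was lost in 10 of 12 fits without an array, all but those without Tnfr-/- air replicate 3 or Tnfr+/+ O3 replicate 1, and its 72 h call in none of 12. The 72 h call was lost, though, on the gene's other probe set (mean log2 level 8.67) and with only the arrays compared in the fit (highest adjusted p 0.094 by limma). Of the other lid genes, Psmd11, which joins lid and base, gave the lowest values of the lid in Tnfr-/- lungs (0.02, 0.15 and -0.03), and Psmd3 and Psmd13 did not pass in any comparison.

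**Figure D5:**
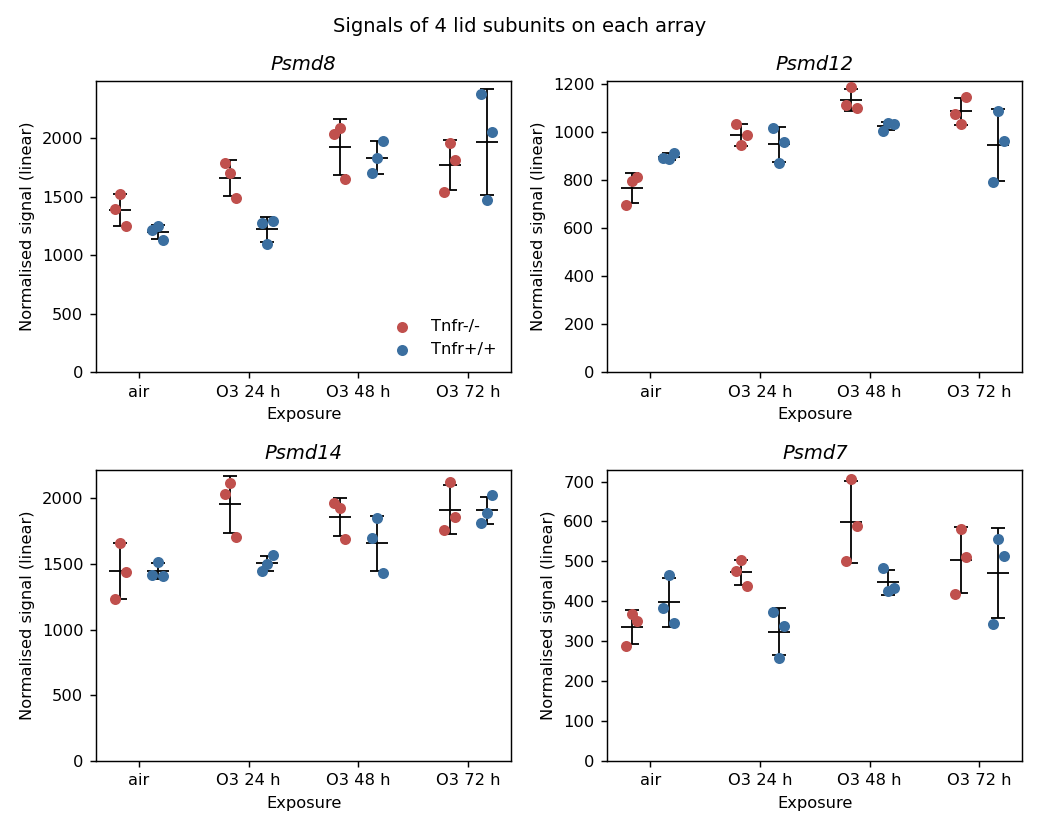
Normalised signal (linear scale from 0) of Psmd8, Psmd12, Psmd14 and Psmd7 on each array by exposure and genotype, with the mean and SD of 3 arrays (bars). For Psmd12 and Psmd7 all Tnfr-/- O3 arrays lie above the Tnfr-/- air arrays, and Psmd8 at 48 h lies above air in both genotypes.

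The 7 alpha ring genes, which form the gate of the core, were positive in Tnfr-/- lungs at all 3 times, with medians of 0.23, 0.33 and 0.29 and ranges at 48 h of 0.12 (Psma6) to 0.53 (Psma5). The Tnfr+/+ medians were 0.15, 0.10 and 0.26, with values between 0.01 (Psma7) and 0.28 (Psma3) at 48 h. The probe sets of Psma6 differed. In Tnfr-/- lungs the one used gave 0.06, 0.12 and 0.07, and another with a mean log2 level of 10.76 gave 0.30, 0.37 and 0.32. In Tnfr+/+ lungs at 24 h these gave 0.31 and 0.06. A dimmer one (7.27) gave -0.03 in Tnfr-/- lungs at 48 h. Psma3 read 2238, 2246 and 2385 in Tnfr-/- air, 2892, 2687 and 2635 after 24 h, 2836, 2799 and 2421 after 48 h, and 3106, 2496 and 2802 after 72 h. The Tnfr+/+ values were 1983, 1952 and 2056 in air, 2329, 2687 and 2197 after 24 h, 2512, 2655 and 2156 after 48 h, and 2500, 2717 and 2518 after 72 h. Every O3 array lay above every air array of its genotype. Psma3 rose by 0.33 ± 0.08 at 72 h on average (adjusted p = 0.013, lost in none of 12 fits without an array) and gave 0.26 ± 0.08 at 48 h (adjusted p = 0.061). Psma5 rose by 0.35 ± 0.10 at 72 h (adjusted p = 0.037), a call kept in 3 of 12 such fits (without Tnfr-/- air or O3 replicate 2, or Tnfr+/+ O3 replicate 1). Its other probe sets gave 0.07 and, on a dim one with a mean log2 level of 5.57, -0.29.

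The 3 catalytic subunits gave 0.24 to 0.25 at 24 h and 0.29 to 0.30 at 48 h on average, and none passed. Psmb5, the chymotrypsin-like site, read 1847, 2075 and 2150 in Tnfr-/- air, 2468, 2799 and 2833 after 24 h, 2488, 2756 and 2311 after 48 h, and 2451, 2621 and 2248 after 72 h. For Tnfr+/+ lungs the signals were 1956, 2168 and 2041 in air, 1887, 2417 and 2194 after 24 h, 2275, 2267 and 3093 after 48 h, and 2506, 2282 and 2566 after 72 h. Its O3 arrays lay above air in Tnfr-/- lungs at each time, and in Tnfr+/+ lungs at 48 and 72 h. The averaged change was 0.30 ± 0.09 at 48 h (adjusted p = 0.057). Psmb6, the caspase-like site, gave 0.30 ± 0.10 at 48 h (adjusted p = 0.085) and 0.11 ± 0.10 at 72 h. Psmb7, the trypsin-like site, read 3989 to 5260 on the 9 Tnfr-/- O3 arrays and 3157 to 3230 in Tnfr-/- air, but 2326 on Tnfr+/+ O3 48 h replicate 3 and 1804 on Tnfr+/+ O3 72 h replicate 1, against 3267 to 4905 on the other Tnfr+/+ O3 arrays. Its standard error was 0.27, and its change of 0.49 in Tnfr-/- lungs at 48 h did not pass (adjusted p = 0.34). The 4 other beta ring genes did not pass, with medians of 0.20, 0.23 and 0.04 in Tnfr-/- and 0.11, 0.06 and 0.17 in Tnfr+/+ lungs.

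The base of the cap held no call. Its 6 ATPases had medians of 0.15, 0.25 and 0.21 in Tnfr-/- and 0.06, 0.08 and -0.14 in Tnfr+/+ lungs. Psmc1, one of them, read 797.7 to 1055 on the 9 Tnfr-/- O3 arrays and 765.4, 837.3 and 878.5 in Tnfr-/- air. In Tnfr+/+ lungs it read 473.1 on O3 48 h replicate 3 and 324 on O3 72 h replicate 1, against 932.4, 954.5 and 901.1 in air. These same arrays also stood out for Psmb7, for Psmb4 of the beta ring (3592 and 5703, against 2218 to 2663 on the other Tnfr+/+ O3 arrays) and, on the 48 h array, for B and plasma cell markers, which summed to 12173 against at most 6198 on every other array. The non-ATPase subunits of the base ranged in the averaged comparison at 72 h from -0.22 (Psmd4, a ubiquitin receptor) to 0.06 (Psmd1). The 3 assembly chaperones had averaged medians of 0.07, 0.09 and 0.03, and at 72 h ran from -0.10 (Psmd9) to 0.21 (Psmd5).

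Of the activators, which open the core without ATP, Psme3 (PA28 gamma, found in the nucleus) read 382.5, 484 and 471.3 in Tnfr-/- lungs after 72 h of O3, against 305.2, 324.9 and 369.1 in air. In Tnfr+/+ lungs it read 589, 486 and 405.7 after 72 h, against 285.3, 370.6 and 313.3 in air. The 72 h arrays lay above air in both genotypes. It rose by 0.51 ± 0.12 at 72 h on average (adjusted p = 0.0088), though its other probe sets gave 0.15 (mean log2 level 8.56) and -0.31 (4.47). Psme1 (PA28 alpha, induced by interferon) read 2673, 2836 and 3039 in Tnfr-/- lungs after 72 h against 3057, 2305 and 2738 in air, and 1517, 2728 and 2889 in Tnfr+/+ lungs against 2629, 2653 and 2490 in air. The groups overlapped, and the averaged differences of 0.16, 0.17 and -0.05 at the 3 times did not pass (SE 0.14).

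The genotypes were then set against each other directly. In air 17 of the 36 subunits were higher in Tnfr-/- than in Tnfr+/+ lungs and the median was -0.01. After 24, 48 and 72 h of O3 the medians were 0.19, 0.16 and 0.05, and 31, 34 and 22 subunits were higher in Tnfr-/- lungs, against 46.5%, 43.2% and 45.7% of all genes. The median at 72 h was -0.01 to 0.12 with 1 array left out and -0.02 with the Gapdh ratio as a covariate, and that at 48 h was 0.08 with the dimmest probe set of each gene. No subunit passed the limma test in air, at any O3 time or averaged over the 4 exposures, where 0.0431%, 0.56%, 0.069%, 0.0776% and 1.88% of all genes were called higher and 0.0259%, 0.492%, 0.0776%, 0.0517% and 2.74% lower. Their unadjusted p was under 0.05 for 0, 6, 4, 1 and 7 subunits that were higher in Tnfr-/- lungs, against 2.79%, 5.8%, 3.79%, 4.54% and 8.44% of all genes, and for none that was lower, against 3.73%, 7.39%, 5.62%, 5.78% and 12.4%. The groups did not overlap for 11 subunits higher at 24 h (30.6%, against 10.8% of all genes), 7 at 48 h (19.4%, against 6.93%) and 0 at 72 h (against 5.48%). Lower in Tnfr-/- lungs without overlap were 0 at 24 h (against 12.1%), 1 at 48 h (2.78%, against 9.92%) and 0 at 72 h (against 7.53%). In air 2 were higher (5.56%, against 7.4%) and 5 lower (13.9%, against 7.9%).

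By p the leading subunits in these comparisons were Psmd7 (0.56 ± 0.19), Psmd14 (0.37 ± 0.13) and Psmd8 (0.44 ± 0.16) at 24 h (adjusted p = 0.19, 0.19 and 0.2), Psma7 (0.37), Psmb1 (0.35) and Psmd10 (0.44) at 48 h (adjusted p = 0.38, 0.38 and 0.43), and Psma2 (0.39), Psmc5 (0.47) and Psma4 (0.32) at 72 h (adjusted p = 0.41, 0.47 and 0.47). Averaged over the exposures, Psma2 (0.26 ± 0.08), Psma3 (0.16 ± 0.06) and Psma4 (0.22 ± 0.08) led, all of the alpha ring (adjusted p = 0.079, 0.099 and 0.11). In air Psmd12 (-0.23), Psma3 (0.20) and Psmd11 (-0.19) had the lowest p (adjusted p = 0.73, 0.82 and 0.83). The median interaction of genotype and O3 was 0.17, 0.20 and 0.14 at 24, 48 and 72 h with a median standard error of 0.23. It was 0.03 at 72 h without Tnfr+/+ O3 72 h replicate 1 and 0.01 with array quality weights, 0.04 at 48 h with the dimmest probe sets, and 0.06 and 0.02 at 24 and 72 h with the Gapdh ratio as a covariate. No subunit passed by limma, where 0.0172%, 0% and 0.00862% of all genes were called positive and 0% negative at each time. The unadjusted p was under 0.05 for 1, 2 and 1 positive subunits, against 3.2%, 2.53% and 2.47% of all genes, and for no negative one, against 3.29%, 3.11% and 2.72%. Psmd7, Psmd14 and Psmb5 led at 24 h (0.80, 0.38 and 0.35), Psmd7, Psmd12 and Psmd11 at 48 h (0.65, 0.37 and 0.34), and Psmd12, Psmc1 and Psmd8 at 72 h (0.44, 0.70 and -0.34), with adjusted p of 0.61 to 0.90. In the same comparison of genotypes at 24 h the Gapdh ratio was 1.03 to 1.22 in Tnfr-/- and 1.53 to 1.74 in Tnfr+/+ lungs. With it as a covariate the median of 0.19 became 0.07, by a slope that rests largely on the differing Tnfr+/+ array. The 7 B and plasma cell markers summed to 4901 to 6198 in Tnfr-/- and 2522 to 3189 in Tnfr+/+ lungs at that time, with 3 of the 7 higher by limma. Their part in the difference was not tested.

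Genes that work with the proteasome were given from lists, each by its calls. Of 15 measured NRF2 target enzymes, which make glutathione and NADPH and detoxify oxidants, 5, 8 and 6 rose at 24, 48 and 72 h averaged over the genotypes, and Gstm1 fell at 72 h (-0.72). Gclc, the catalytic subunit of the first enzyme of glutathione synthesis, rose by 0.83, 0.51 and 1.00 (SE 0.11 each, adjusted p = 0.00054, 0.0085 and 1.1e-05). The medians of these 15 genes were 0.33, 0.32 and 0.33, beside 0.16, 0.20 and 0.14 for the subunits. Of 10 measured regulators of proteasome transcription, 3 rose at 48 h: Nfe2l2 itself (0.38 ± 0.10, adjusted p = 0.023) and the small Maf genes Maff (0.87 ± 0.19) and Mafk (0.55 ± 0.13). Maff was also higher at 72 h (0.74 ± 0.19, adjusted p = 0.016), as the 1 call of the 10 at that time. Nfe2l1 gave -0.08, -0.17 and -0.27 and did not pass.

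Among 11 measured genes of the immunoproteasome and MHC class I pathway none rose and 1 fell, Tapbp, the peptide loading factor tapasin (-0.52 ± 0.10 at 48 h). Their medians were -0.09, -0.26 and -0.17. The exchange subunits themselves did not pass: Psmb8 gave -0.08, -0.16 and 0.08, Psmb9 -0.38, -0.65 and -0.63, and Psmb10 0.03, -0.19 and -0.17. Ubiquitin conjugating enzymes Ube2d3 (0.54 and 0.53) and Ube2k (0.40 and 0.45) rose at 48 and 72 h, 2 of only 3 measured genes of their list. Of 11 ubiquitin shuttles and VCP cofactors, Rad23b (0.52 ± 0.10) and Nploc4 (0.46 ± 0.10) rose at 72 h. Of 9 assembly factors of the core and other regulators, the activator Psme4 alone rose, at 48 h (0.35 ± 0.09), and of 7 other proteins that bind the proteasome 2 rose at 48 and 72 h, the deubiquitinase Uchl5 (0.53 and 0.57) and the thioredoxin-like protein Txnl1 (0.43 and 0.38).

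Heat shock proteins and co-chaperones hold proteins folded or hand them to the proteasome. Of 13 measured, 5 were lower in Tnfr-/- than in Tnfr+/+ lungs at 24 h, led by Hsph1 (-2.68 ± 0.31, limma adjusted p = 0.00026), Dnaja1 (-1.56) and Hsp90aa1 (-0.80). The list's median there was -1.04, where that of the subunits was 0.19. Between the genotypes the list's median was -0.46 in air, 0.23 at 48 h and -0.21 at 72 h, with none called. Averaged over the exposures 6 were lower. In O3 over air averaged over the genotypes none passed at 24 h, 2 rose and 1 fell at 48 h, and 2 rose at 72 h. That average joins medians of opposite sign at 24 and 48 h. Over air the list's median was 0.15, -0.30 and 0.18 in Tnfr+/+ lungs at 24, 48 and 72 h. In Tnfr-/- lungs it was -0.25, 0.36 and 0.47. Cell division genes rose in 15 of 15 cases at 48 and at 72 h on average (medians 1.39 and 2.05) and in none at 24 h. Alveolar macrophage markers also rose at these times, 4 of 8 at each, among them Chil3 by 1.05 and 0.90 and Plet1 by 0.54 and 0.57, and none of the 8 was near 0 on any array (lowest signal 115). The 8 summed to 20565 to 23342 and 18248 to 19859 in Tnfr-/- lungs at 48 and 72 h against 11847 to 12413 in air, and to 15631 to 21335 and 15800 to 20767 in Tnfr+/+ lungs against 10515 to 12569 in air. At 24 h in Tnfr-/- lungs, where all 36 subunits were positive, the macrophage markers summed to 14613 to 17752. The 7 neutrophil markers summed to 2975 to 5910 against 2453 to 3063 in air, and none of either list was called. Much of the macrophage sum was Chil3, which read 4240 to 14400 over all arrays. The mean log2 level of the 8 was 9.80 to 9.99 at 24 h and overlapped with 9.64 to 9.83 in air. At 48 h on average 1 of the 8 was lower at an unadjusted limma p under 0.05. T and NK cell markers were lower by the test in 0 and 2 of 9 cases at 48 and 72 h averaged over the genotypes (medians -0.28 and -0.31), B and plasma cell markers in 0 and 1 of 7 (-0.43 and -0.39), muscle markers in 0 and 1 of 9 (-0.20 and -0.39), and liver markers in 1 and 2 of 6 (-0.99 and -0.98). No lung epithelium or neutrophil marker was called in these comparisons. Averaged over the exposures, 4 of the 9 T and NK cell markers were lower in Tnfr-/- than in Tnfr+/+ lungs. The part that these cells had in the level of the subunits was not tested.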

How the data were processed

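The authors deposited 1 MAS5 intensity (signal) per probe set on a linear scale, made with Affymetrix Expression Console per the submitters' processing notes, with each array scaled to a common level and array medians that still differed. Here the intensity values of 24 arrays were quantile normalized, raised to a floor of 1 and put on the log2 scale. Of 22644 probe sets, 20537 reached the 20th percentile of at least 1 array, and 64 control probe sets entered no test. Gene names came from the platform annotation (20338 probe sets with 1 gene, 20322 of them matched by Entrez ID, 691 with several, 1551 not listed). All 8 group means were estimated in a single limma fit (limma 3.58.1, R 4.3.3; 16 residual and 2.38 prior degrees of freedom), and 17 comparisons were read from it, with Benjamini-Hochberg adjustment over the 20537 probe sets and a threshold of 0.05. Intervals are 95%. The script was tested on simulated data. In the simulated comparison of 48 h of O3 with air in Tnfr-/- lungs, 14.9% of true log2 changes of 0.5 in either direction were called. Of changes of 1 it called 76.1%, and of changes of 2 it called 98.5%. A signal printed for an array is the normalized value, and ± is the standard error of a log2 fold change.

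Genes named were all called subunits, the 3 with the lowest p where none was called, the extremes of subcomplexes, Psma3, Psme1, the catalytic subunits, Tnfrsf1a, Tnfrsf1b and called genes of the other lists. The members and lists were chosen with earlier results of these data known. Alternatives covered the normalization, filter, floor, probe set, arrays fitted, array weights, replicate block, the methods' t-test and left-out arrays. The Gapdh ratio as a covariate, and the fit without Tnfr+/+ O3 72 h replicate 1, were chosen after seeing the data. No pair of arrays held identical values, and 0 columns belonged to other samples. Array intensities carry no read depth.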

Additional observations from a re-analysis of the deposited data

Results flagged for a closer look

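Of the 28 member probe sets that were not used because the same gene had a brighter one, 2 passed the limma test where the probe set used did not. On its second probe set, Psmb4 of the beta ring rose by 0.50 ± 0.12 at 72 h averaged over both genotypes (adjusted p = 0.015), where the probe set used gave 0.32. On a dim probe set with a mean log2 level of 5.32, the ATPase gene Psmc1 gave -1.14 ± 0.32 at 48 h (adjusted p = 0.035), where the brighter one gave -0.09.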

How the results depend on the processing

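Over 12 alternative settings and the fits that left out 1 array each, the median log2 fold change of the subunits stayed within 1 SD of arrays (0.08) in 329 of 338 cases. As 0.08 is as wide as the smaller medians, this count says little about them. The median between genotypes at 72 h ran from -0.02 to 0.12 and still counted as within it. Single calls were kept in 254 of 317. Psmd8 at 48 and 72 h, Psmd12 at 48 h and Psmd14 at 72 h, averaged over the genotypes, were called under every alternative run for them. These genes had no other probe set past the filter, so the change of probe set could not alter their calls. The methods' t-test was not run on averaged comparisons. In the following, counts are of subunits called and the cause of each change was not tested. With array quality weights, counts were 1, 8 and 5 in Tnfr-/- lungs after 24, 48 and 72 h, 1 at 48 h in Tnfr+/+ lungs, 14 at 48 h and 13 at 72 h averaged, and 1 between genotypes averaged over exposures, and medians were 0.20 at 72 h in Tnfr+/+ lungs and 0.01 for the 72 h interaction. With only the arrays compared in the fit, which has fewer residual degrees of freedom, counts were 0 at 48 h and 0 at 72 h in Tnfr-/- lungs, 0 at 72 h in Tnfr+/+ lungs and 3 at 72 h averaged. The methods' t-test at its thresholds gave 6, 11 and 2 at 24, 48 and 72 h in Tnfr-/- lungs, and 2 and 3 at 48 and 72 h in Tnfr+/+ lungs. Between genotypes it gave 4, 8 and 2 in air and at 24 and 48 h. The methods name that test for O3 effects in Tnfr+/+ lungs (p under 0.01) and for genotypes in air (p under 0.05). For genotypes in O3 they name a two-way ANOVA, so the counts of 8 and 2 are not from the authors' test. After Benjamini-Hochberg adjustment the t-test gave 0 at 72 h in either genotype. It gave 2 at 48 h in Tnfr-/- lungs, neither of them Psmd7 or Psmd12 (adjusted p = 0.11 and 0.067). Cyclic loess and a stricter filter each gave 2 at 72 h in Tnfr+/+ lungs, and the stricter filter 1 at 48 h. With the Gapdh ratio as a covariate, chosen after seeing the data, counts were 1 at 48 h in Tnfr+/+ and 2 at 72 h in Tnfr-/- lungs, and medians were 0.12 at 72 h in Tnfr-/- lungs, 0.07 between genotypes at 24 h, and 0.06 and 0.02 for the interaction at 24 and 72 h. A fit without Tnfr+/+ O3 72 h replicate 1, also chosen after seeing the data, gave 1 at 48 h in Tnfr+/+, 4 at 48 h in Tnfr-/- and 7 at 48 h averaged. With the dimmest probe set of each gene, Psmd7 turned to -0.86 in Tnfr-/- lungs and -0.35 averaged at 48 h, Psma5 to -0.29 and Psme3 to -0.31 at 72 h averaged, the count at 48 h in Tnfr-/- lungs was 1, and the 48 h interaction median was 0.04. Leaving out 1 array gave counts of 1 to 3 at 48 h and 0 to 1 at 72 h in Tnfr-/- lungs, 0 to 2 at 72 h in Tnfr+/+ lungs (2 without O3 replicate 3), 2 to 6 at 48 h averaged (2 without Tnfr-/- air replicate 1 or O3 replicate 2, or Tnfr+/+ air replicate 1 or 3), 5 to 11 at 72 h averaged (11 without Tnfr+/+ O3 replicate 1), and 0 to 1 between genotypes averaged. The median at 72 h in Tnfr+/+ lungs was then 0.05 to 0.22, and that of the 72 h interaction 0.03 to 0.13. Equal replicate numbers did not pair the arrays (correlations of deviations -0.08 to 0.11, none of 10 comparisons with all 3 over 0.1), and with the replicate number as a block, 3 subunits were called at 48 h averaged (Psmd6 at adjusted p = 0.054) and no other call changed. That call of Psmd6 was also lost with the values as deposited and with the dimmest probe set. Its averaged call at 72 h was lost with only the arrays compared and with the dimmest probe set.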
